A study of Mus musculus with 14 samples.

Results

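Genes of neuroendocrine cells were followed through all 14 libraries of a study of the embryonic mouse lower urinary tract. They were Insm1, Chga, Chgb, Scg2, Calca, Tph1, Pcsk1, Iapp and Gad2, 9 of the 55228 genes counted. They were matched by symbol, and they had been picked for measured values that stood higher in urethral than in bladder epithelium. Differences between the tissues are therefore given as values without a test. The study measured RNA by sequencing in epithelium peeled off its mesenchyme after trypsin, from untreated wildtype CD-1 embryos, all female. There were 3 urethral and 3 bladder libraries at E18.5, and 4 urethral and 4 bladder libraries at E14.5. Each library held the pooled females of a litter, so a value is a mean over embryos and over all cells that came with the layer. In such bulk RNA, a change in the number of neuroendocrine cells and a change in the RNA of each cell cannot be told apart.

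Neuroendocrine cells are scattered epithelial cells that store peptide hormones and amines in dense core granules and release them on stimulation. They are a known minor cell type of the urethral epithelium. Insm1 is a zinc finger transcription factor of neuroendocrine differentiation. Chga, Chgb and Scg2 encode granins, the acidic proteins packed in the granules, and Pcsk1 encodes a prohormone convertase that cuts precursors there. Calca encodes calcitonin and the calcitonin gene-related peptide from alternative transcripts, and Iapp encodes amylin, a peptide of the same family. Tph1 encodes the rate-limiting enzyme of serotonin synthesis outside the brain. Gad2 encodes a glutamate decarboxylase that makes GABA. The granins, Calca, Pcsk1 and Gad2 are also active in neurons.

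Library totals ran from 21101300 to 36810700 counts. Values are CPM, counts scaled to library sizes that were adjusted by the trimmed mean of M values, and 3 counts were worth 0.0838 to 0.148 CPM depending on the library. Epcam, which encodes an epithelial surface protein, stood at 545 to 609 CPM in urethra E18.5, 241 to 340 CPM in bladder E18.5, 328 to 505 CPM in urethra E14.5 and 428 to 477 CPM in bladder E14.5. RNA of other cells was present in every group. The summed level of 12 mesenchymal genes was 4242 to 5018 CPM in urethra E18.5, against 18840 to 28460 CPM in bladder E18.5, and 1987 to 5745 CPM in urethra E14.5, against 873 to 4095 CPM in bladder E14.5. The summed level of 20 genes of peripheral neurons was 114 to 634 CPM in urethra E18.5, against 72.5 to 350 CPM in bladder E18.5, and 190 to 554 CPM in urethra E14.5, against 81.4 to 307 CPM in bladder E14.5.

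The 9 genes lie on 6 chromosomes of GRCm38 and form no cluster. Insm1 spans 146221921 to 146225020, Chgb 132781278 to 132795079 and Gad2 22622205 to 22693874 on the plus strand of chromosome 2. Chga spans 102554969 to 102565028 on the plus strand of chromosome 12, and Pcsk1 75089826 to 75134861 on the plus strand of chromosome 13. Scg2 spans 79434669 to 79440120 on the minus strand of chromosome 1. Calca spans 114631478 to 114636357 and Tph1 46644641 to 46672537 on the minus strand of chromosome 7. Iapp spans 142298423 to 142303961 on the plus strand of chromosome 6, within the span of Slco1a5 on the other strand, with 0 exon bases shared.

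Several members share a promoter motif that the choice of genes did not use. The 250 bases before each RefSeq start (GRCm38.p6) were available for 8 of the 9 genes, with 9 windows since Tph1 has a pair of starts. The cyclic AMP response element TGACGTCA was found in the windows of Chgb, Pcsk1 and Scg2, 3 of 9 windows, and in 1.55% of all 32851 windows. Its first 5 letters, TGACG on either strand, which also count the full element, were found in 8 of 9 windows and in 17.8% of all windows. Iapp was the gene without them. TATAAA on either strand was in 0 of 9 windows, against 12.4% of all. CAGCTG was in the Chga window, against 13% of all windows, and CATCTG on either strand was in those of Gad2 and Iapp, against 14.4%. The stretches of 30 bases around the element are shown because they hold the letters that these genes share, with the full element, TGACG or its reverse complement CGTCA in capitals, read along the gene.
Chgb: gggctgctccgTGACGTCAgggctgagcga
Pcsk1: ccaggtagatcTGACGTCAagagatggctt
Scg2: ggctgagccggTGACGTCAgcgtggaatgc
Chga: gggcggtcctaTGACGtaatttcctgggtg
Calca: aagcacagaggTGACGcaatctgtctgggg
Tph1: aaatgtgcgtgTGACGctgcgtgtgctagc
Gad2: catttcccttcCGTCActctctcatctccc

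These stretches are chr2:132781559-132781588 on the plus strand for Chgb, chr13:75089768-75089797 on the plus strand for Pcsk1 and chr1:79440076-79440105 on the minus strand for Scg2. The other 4 are chr12:102554886-102554915 on the plus strand for Chga, chr7:114636404-114636433 on the minus strand for Calca, chr7:46672555-46672584 on the minus strand for Tph1 and chr2:22622283-22622312 on the plus strand for Gad2. The first base in capitals lay 72 bases before the start in Chgb, 78 in Pcsk1, 68 in Scg2, 44 in Chga, 65 in Calca, 36 in Tph1 and 33 in Gad2. A match of letters is a description of the sequence, and no binding was measured.

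At E18.5 the 9 genes made up a programme of low level that was present in every urethral library. Their summed level was 111, 98.2 and 114 CPM in urethra E18.5 replicates 1 to 3, against 2.81, 12.2 and 1.33 CPM in bladder E18.5 replicates 1 to 3. In 8 of the 9 genes all 3 urethral libraries stood above all 3 bladder libraries, the exception being Chgb. Of all 17513 genes tested at this stage, 23.4% showed that separation, and since these genes were chosen on this contrast nothing is read from the count.

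The transcription factor Insm1 stood at 6.02, 2.94 and 5.76 CPM in urethra E18.5 replicates 1 to 3, against 0.0952, 0.228 and 0 CPM in bladder E18.5 replicates 1 to 3. The lowest urethral library was well above the highest bladder library, and the mean was 45.5 times higher in urethra (4.91 ± 1.71 CPM against 0.108 ± 0.115 CPM, SD, n = 3 each). In bladder E18.5 this rested on 8 counts in all.

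Of the granins, Chga was the most even between urethral libraries, with 18.54, 16.01 and 18.70 CPM in urethra E18.5 replicates 1 to 3, against 0.571, 3.27 and 0.246 CPM in bladder E18.5 replicates 1 to 3. Scg2 stood at 10.2, 6.91 and 13.2 CPM in urethra E18.5 replicates 1 to 3, against 0.190, 0.990 and 0 CPM in bladder E18.5 replicates 1 to 3. The mean was 13.02 times higher in urethra for Chga and 25.7 times higher for Scg2, and bladder replicate 2 was the highest bladder library for each. Chgb, by contrast, stood at 3.72, 3.70 and 13.9 CPM in urethra E18.5 replicates 1 to 3, against 1.19, 5.18 and 0.984 CPM in bladder E18.5 replicates 1 to 3. Bladder replicate 2 exceeded the lower pair of urethral libraries, while the other bladder libraries lay under all 3. The mean of Chgb was 2.91 times higher in urethra (7.12 ± 5.91 CPM against 2.45 ± 2.36 CPM, SD, n = 3 each).

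The convertase Pcsk1 had the highest CPM of the 9 genes and the smallest spread relative to its mean, with 31.1, 27.2 and 28.9 CPM in urethra E18.5 replicates 1 to 3, against 0.285, 0.533 and 0 CPM in bladder E18.5 replicates 1 to 3. The peptide gene Calca stood at 12.98, 13.81 and 10.90 CPM in urethra E18.5 replicates 1 to 3, against 0.0952, 1.52 and 0.0984 CPM in bladder E18.5 replicates 1 to 3. Means were 107 times higher in urethra for Pcsk1 and 21.96 times higher for Calca. The counts of Calca do not separate the calcitonin and CGRP transcripts. Its close paralog Calcb, which encodes a second form of the gene-related peptide, stood at 8.50, 34.4 and 4.72 CPM in urethra E18.5 replicates 1 to 3, against 0.428, 4.22 and 0.0984 CPM in bladder E18.5 replicates 1 to 3. Calcb spread far more between urethral libraries than Calca did.

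Iapp, the amylin gene, had 7.30, 9.96 and 6.43 CPM in urethra E18.5 replicates 1 to 3, from 740 counts, against 0 counts in all 3 bladder E18.5 libraries. Gad2 had 7.77, 4.00 and 6.07 CPM in urethra E18.5 replicates 1 to 3, from 535 counts, and again 0 counts in bladder E18.5. Set against a floor of 3 counts over the bladder group, these were at least 178-fold higher in urethra for Iapp and at least 134-fold higher for Gad2. The strand setting of the counting is not given in the sources used here, and Slco1a5, the gene around Iapp, had 14, 73 and 15 counts in urethra E18.5 replicates 1 to 3, against 0 in each bladder E18.5 library. Tph1 stood at 13.7, 13.6 and 9.92 CPM in urethra E18.5 replicates 1 to 3, against 0.381, 0.457 and 0 CPM in bladder E18.5 replicates 1 to 3, a mean 44.4 times higher in urethra.

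**Figure D1:**
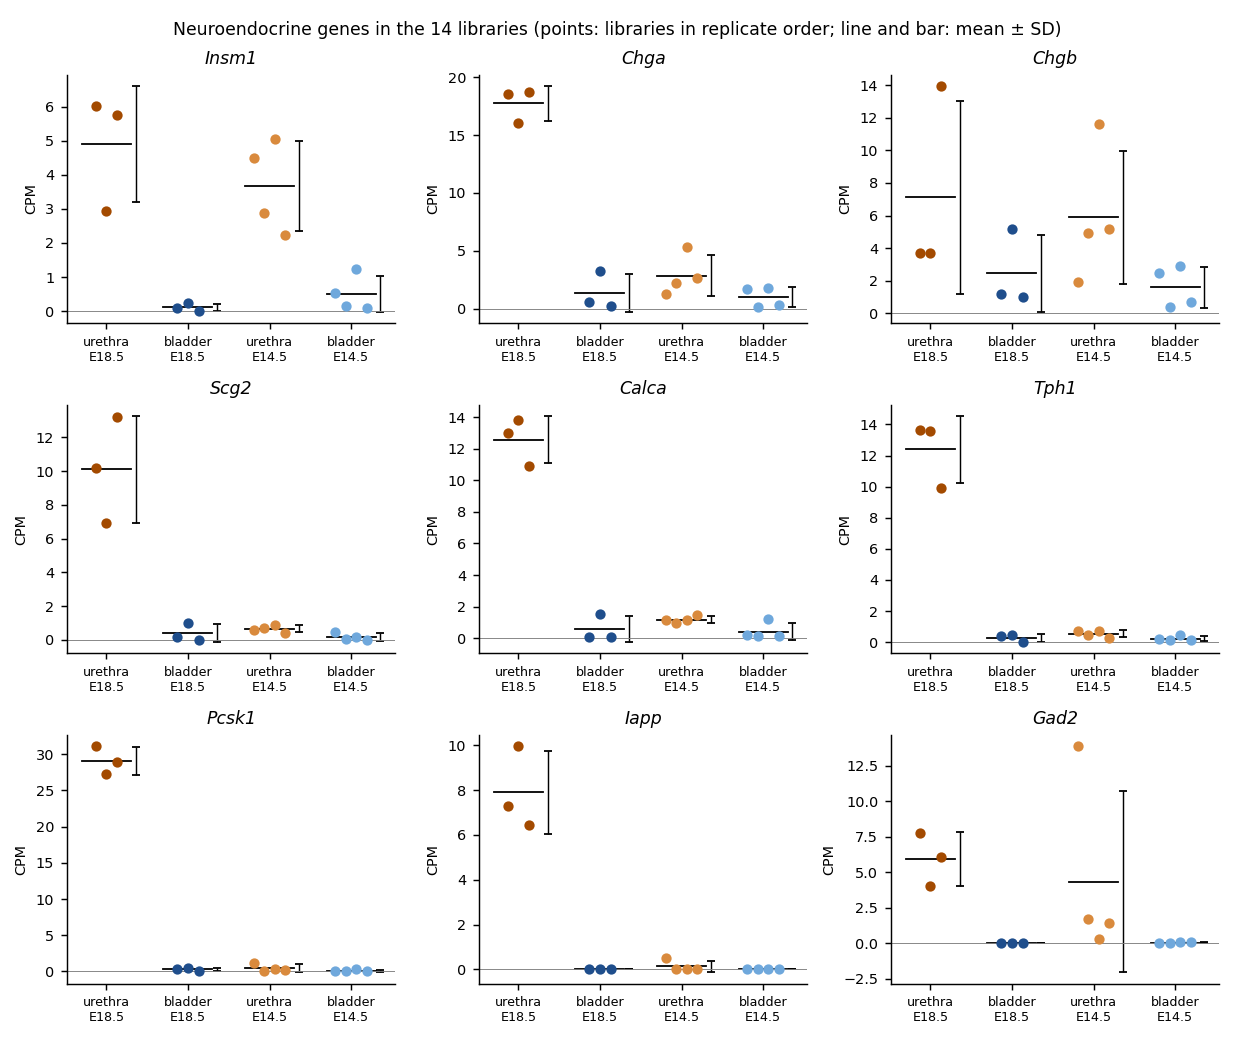
Level in CPM (vertical axis, linear, its own range in each panel) of the 9 genes in urethra and bladder at E18.5 and E14.5. Points are libraries in replicate order, the line is the mean and the bar its SD (n = 3 at E18.5, n = 4 at E14.5). At E18.5 the urethral points stand above all bladder points in every panel but that of Chgb, and in urethra E14.5 Gad2 has 1 library at 13.9 CPM above 3 libraries at 0.321 to 1.72 CPM.

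At E14.5 mean levels of the 9 genes in urethra ran from 0.132 CPM for Iapp to 5.90 CPM for Chgb, with Scg2, Tph1, Pcsk1 and Iapp under 1 CPM. In 2 of the genes, Insm1 and Gad2, every urethral library stood above every bladder library. That separation was found in 17.6% of the 16697 genes tested at E14.5, and again the choice of genes used this contrast. Insm1 stood at 4.49, 2.87, 5.06 and 2.25 CPM in urethra E14.5 replicates 1 to 4, against 0.527, 0.142, 1.24 and 0.101 CPM in bladder E14.5 replicates 1 to 4, a mean 7.28 times higher in urethra. Gad2 stood at 13.9, 1.72, 0.321 and 1.42 CPM in urethra E14.5 replicates 1 to 4, against 0, 0, 0.092 and 0.0672 CPM in bladder E14.5 replicates 1 to 4. Its urethral mean of 4.33 ± 6.38 CPM (SD, n = 4) rested mostly on replicate 1, which held 315 of 401 counts.

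The granins overlapped between the tissues at E14.5. Chga stood at 1.23, 2.17, 5.34 and 2.64 CPM in urethra E14.5 replicates 1 to 4, against 1.68, 0.114, 1.75 and 0.336 CPM in bladder E14.5 replicates 1 to 4. Chgb stood at 1.94, 4.92, 11.6 and 5.16 CPM in urethra E14.5 replicates 1 to 4, against 2.45, 0.398, 2.90 and 0.672 CPM in bladder E14.5 replicates 1 to 4. For each of them the lowest urethral library, replicate 1, fell under bladder replicates 1 and 3. Scg2 was at 0.394 to 0.883 CPM in urethra E14.5, against 0 to 0.496 CPM in bladder E14.5.

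The hormone, convertase and serotonin genes averaged at most 1.18 CPM at E14.5 in each tissue. Calca stood at 0.943 to 1.497 CPM in urethra E14.5, against 0.114 to 1.20 CPM in bladder E14.5, where replicate 3 alone exceeded 0.186 CPM. Tph1 stood at 0.236 to 0.748 CPM in urethra E14.5, against 0.114 to 0.460 CPM in bladder E14.5. Pcsk1 had 28, 0, 8 and 4 counts in urethra E14.5 replicates 1 to 4, against 4, 0, 6 and 0 counts in bladder E14.5 replicates 1 to 4. Iapp had 12, 0, 0 and 0 counts in urethra E14.5 replicates 1 to 4, against 0 in all 4 bladder E14.5 libraries. Only 6 of the 9 genes passed the filter on low counts at E14.5, Pcsk1, Iapp and Gad2 being left out. Ratios of the urethral to the bladder mean at E14.5 were 2.46 to 4.28 for Chga, Chgb, Scg2, Calca, Tph1 and Pcsk1.

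Within urethra, the 9 genes fell into 6 that stood higher at E18.5 and 3 that overlapped between the stages. The urethral and bladder libraries compared here are those on which the genes were chosen, so stage differences are given as values, and calls are counted only beside their background with nothing read from them. In Chga, Scg2, Calca, Tph1, Pcsk1 and Iapp all 3 urethra E18.5 libraries stood above all 4 urethra E14.5 libraries, a separation seen in 19.4% of all 18286 genes tested. The same 6 had an edgeR adjusted p under 0.05 as higher at E18.5 and 0 as lower, against 17.3% of all genes higher and 15.7% lower. Pcsk1 and Iapp, which the filter on low counts left out at E14.5, entered this fit through urethra E18.5. Chga was over the threshold in 6 alternatives. These were pan-epithelial scaling (edgeR adjusted p = 0.104) and some single urethral libraries left out (edgeR adjusted p of 0.0502 to 0.0672). Iapp was over it with DESeq2 (adjusted p = 0.22). Epithelial genes differed with stage as well. The summed level of 10 of them was 9225 to 10550 CPM in urethra E18.5 and 3483 to 8751 CPM in urethra E14.5, and of the 10 genes 6 rose and 0 fell (edgeR adjusted p under 0.05), with a median log2 fold change of 0.73, which with pan-epithelial scaling was 2 rose, 3 fell and a median of 0.07. The part of this in the levels of the 9 genes was not tested.

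The widest differences were in hormone processing and hormone genes. Pcsk1 averaged 29.1 ± 1.93 CPM in urethra E18.5 and 0.428 ± 0.552 CPM in urethra E14.5 (SD). Its log2 fold change was 6.10 ± 0.94, with an SE worked back from the edgeR F statistic, as for all fitted values here. Iapp averaged 7.90 ± 1.84 CPM in urethra E18.5 and 0.132 ± 0.264 CPM in urethra E14.5, a log2 fold change of 5.92 ± 1.09. All E14.5 counts of Iapp came from replicate 1, and without that library the fitted value, then against 0 counts and no bound, was 10.75.

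Tph1 averaged 12.4 ± 2.14 CPM in urethra E18.5 and 0.550 ± 0.239 CPM in urethra E14.5, a log2 fold change of 4.49 ± 0.60. Scg2 averaged 10.1 ± 3.16 CPM in urethra E18.5 and 0.658 ± 0.207 CPM in urethra E14.5, a log2 fold change of 3.93 ± 0.84. Calca averaged 12.6 ± 1.499 CPM in urethra E18.5 and 1.18 ± 0.232 CPM in urethra E14.5, a log2 fold change of 3.41 ± 0.80. The fitted folds were 22.4 for Tph1, 15.3 for Scg2 and 10.6 for Calca. Chga differed less, averaging 17.8 ± 1.51 CPM in urethra E18.5 and 2.85 ± 1.76 CPM in urethra E14.5, a log2 fold change of 2.64 ± 0.81. It was 1.64 when libraries were scaled on 7 pan-epithelial genes, which put the median of all genes at -0.84.

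Insm1, Chgb and Gad2 overlapped between the stages. Insm1 averaged 4.91 ± 1.71 CPM in urethra E18.5 and 3.66 ± 1.33 CPM in urethra E14.5, a log2 fold change of 0.42 ± 0.65. Chgb averaged 7.12 ± 5.91 CPM in urethra E18.5 and 5.90 ± 4.07 CPM in urethra E14.5, a log2 fold change of 0.27 ± 0.79. Gad2 averaged 5.95 ± 1.89 CPM in urethra E18.5 and 4.33 ± 6.38 CPM in urethra E14.5, a log2 fold change of 0.46 ± 0.94, and without urethra E14.5 replicate 1 it was 2.36. The sign of Chgb turned without urethra E14.5 replicate 1 (a log2 fold change of -0.02) and without urethra E18.5 replicate 3 (-0.63). With pan-epithelial scaling those of Chgb (-0.70) and Insm1 (-0.41) turned.

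**Figure D2:**
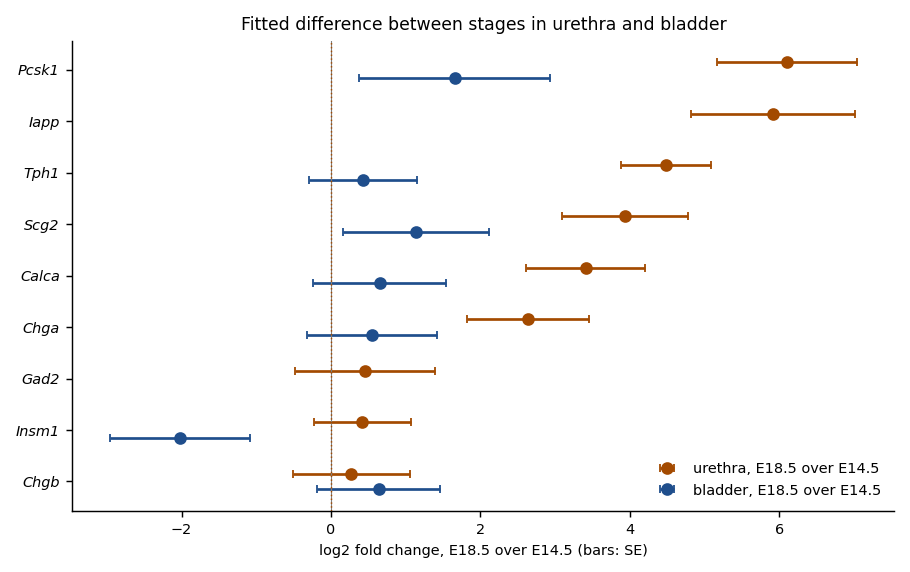
Log2 fold change between E18.5 and E14.5 (horizontal axis, with SE bars) in urethra and in bladder, ordered by the urethral value. The dotted line, close to 0, is the median of all genes in urethra. In urethra 6 genes lie between 2.64 and 6.10, while Gad2, Insm1 and Chgb lie between 0.27 and 0.46. In bladder Insm1 lies at -2.02 and the other 6 shown between 0.43 and 1.66. Iapp and Gad2 have no bladder point because their bladder counts were 0 to 4 in all at either stage.

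In bladder the stages overlapped in all 9 genes, while 22.4% of all genes had every bladder E18.5 library above every bladder E14.5 library. Iapp and Gad2, with 0 and 4 bladder counts in all, are left aside. Of the other 7, none had an edgeR adjusted p under 0.05 and 0 had an unadjusted p under 0.05, and DESeq2 called 1, Insm1. Of all genes tested 40.3% passed, 19.9% higher and 20.4% lower at E18.5. Insm1 averaged 0.108 ± 0.115 CPM in bladder E18.5 and 0.503 ± 0.529 CPM in bladder E14.5, a log2 fold change of -2.02 ± 0.94. Chga, Chgb, Scg2, Calca, Tph1 and Pcsk1 had log2 fold changes of 0.43 to 1.66. Without bladder E18.5 replicate 2 the log2 fold changes of Calca, Chga, Scg2, Chgb and Tph1 were -1.93, -1.22, -0.94, -0.56 and -0.16. The difference between the stage changes of the tissues passed in 22.9% of all genes tested, and it was not tested for the 9 genes, whose choice rests on the same libraries.

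Per kilobase of exon model, the order of the genes in urethra was different at the 2 stages. In urethra E18.5 mean levels per kilobase were 8.11 CPM for Iapp, 7.46 for Calca, 6.44 for Chga, 5.19 for Pcsk1, 4.02 for Scg2, 2.60 for Chgb, 2.01 for Tph1, 1.58 for Insm1 and 1.01 for Gad2. Hormone, granin and convertase genes thus stood at the top. Neighbours in this order overlapped between libraries except Chga and Pcsk1, whose libraries lay apart (5.81 to 6.78 for Chga and 4.86 to 5.55 for Pcsk1). In urethra E14.5 the order was Chgb at 2.15 CPM per kilobase, Insm1 at 1.18, Chga at 1.03, Gad2 at 0.737, Calca at 0.699, Scg2 at 0.262, Iapp at 0.136, Tph1 at 0.0890 and Pcsk1 at 0.0763. At that stage only Calca and Scg2 were neighbours whose libraries did not overlap.

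**Figure D3:**
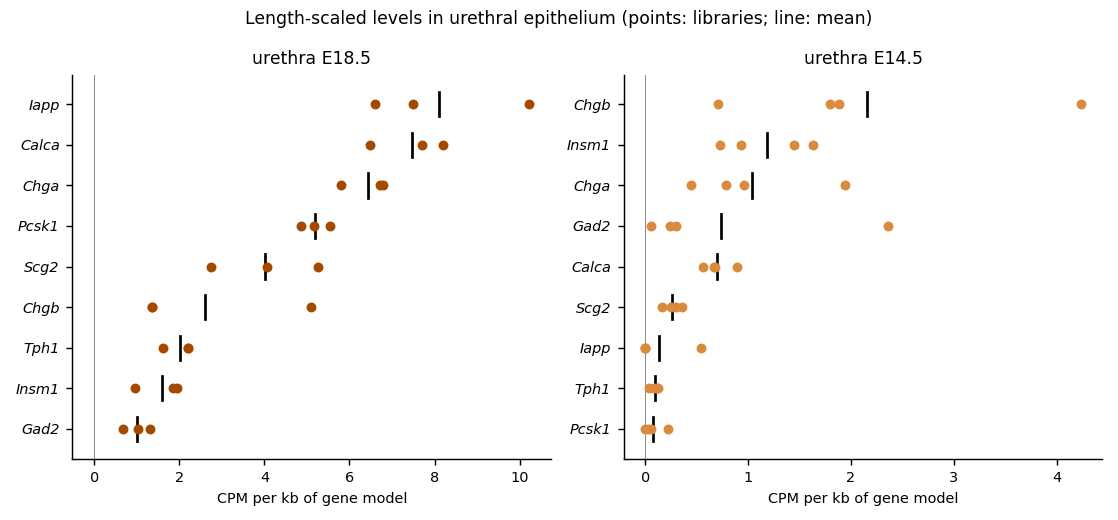
Level in CPM per kilobase of exon model (horizontal axes, linear, with different ranges) of the 9 genes in urethra E18.5 and urethra E14.5, ordered by the mean. Points are libraries and lines are means. Iapp leads at E18.5 with 8.11 CPM per kilobase and is among the lowest at E14.5 with 0.136, while Chgb leads at E14.5 with 2.15.

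The genes did not all follow the same libraries within a group. The summed level of the 20 peripheral neuron genes was 634 CPM in urethra E18.5 replicate 3, against 114 to 128 CPM in the others of that group, and 350 CPM in bladder E18.5 replicate 2, against 72.5 to 86.9 CPM in the others. It was 554 CPM in urethra E14.5 replicate 3, against 190 to 372 CPM in the others, and 307 CPM in bladder E14.5 replicate 3, against 81.4 to 198 CPM in the others. In all 4 groups the library highest in this sum was also the highest in Chga and in Chgb. That held in 3 of 4 groups for Insm1 and Scg2, in 2 for Calca, Tph1 and Pcsk1, in 1 for Gad2 and in 0 for Iapp. The part of neuronal RNA in the levels of the granins was not tested.

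With the library of the highest neuronal sum left out of each group, an alternative chosen after seeing the data, the log2 fold changes between the stages in urethra were 6.01 for Pcsk1, 5.65 for Iapp, 4.80 for Tph1, 3.88 for Scg2, 3.49 for Calca and 3.11 for Chga. For Chgb it was then -0.10. With the log2 neuronal sum as a covariate, also chosen after seeing the data, it was 1.02 for Chgb.

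**Figure D4:**
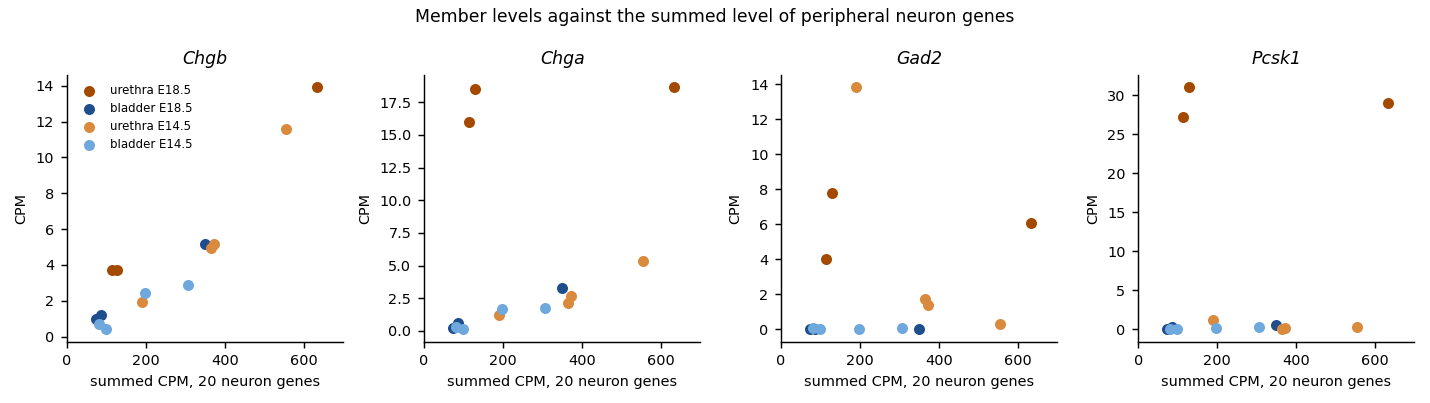
Level in CPM of Chgb, Chga, Gad2 and Pcsk1 (vertical axes) against the summed level in CPM of 20 peripheral neuron genes (horizontal axes) in the 14 libraries, coloured by group. Chgb is highest at the right of its panel, with 13.9 and 11.6 CPM at neuronal sums of 634 and 554 CPM. Pcsk1 is at 27.2 to 31.1 CPM in urethra E18.5 at neuronal sums of 114, 128 and 634 CPM, and at 1.23 CPM or less in every other group.

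Urethra E14.5 replicate 1 differed from its group in several genes. Its sum of the 10 epithelial genes was 8751 CPM, against 3483 to 5041 CPM in the other 3 libraries of the group. It had the lowest neuronal sum of its group and the lowest Chga and Chgb, and the highest Gad2, Iapp, Pcsk1 and Tph1. Of genes outside the 9, it was also highest in Gad1, with 0.880 CPM against 0.0803 to 0.246 CPM in the other 3 libraries of the group, and in Atoh1, with 2.02 CPM against 0.241 to 0.656 CPM. Atoh1 encodes a basic helix-loop-helix factor of Merkel and other sensory cells, and Gad1 encodes the second glutamate decarboxylase.

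Other genes tied to the neuroendocrine programme were taken from 6 lists of 112 genes, which leave out the 9. Rest, a repressor of neuronal genes, is among the 112. At E18.5, 75 of the 112 were tested (edgeR adjusted p under 0.05). Of these, 26 were higher in urethra, 11 were lower and 38 did not pass. At E14.5, 73 were tested, and 32 were higher in urethra, 4 were lower and 37 did not pass. Over all genes tested, 18.6% were higher and 19.3% lower in urethra at E18.5, and 20.9% were higher and 23.1% lower at E14.5. Median log2 fold changes of the listed genes were 0.87 at E18.5 and 1.44 at E14.5, and 0.03 and 0.04 over all genes tested. With the neuronal sum as a covariate, 16 listed genes in place of 32 were higher in urethra at E14.5. Pan-epithelial scaling, which put the median of all genes at 1.01 at E14.5, gave 61 higher and 1 lower.

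Lists of other cell types differed between the tissues as well. At E14.5, of 12 mesenchymal genes 5 were higher in urethra and 0 lower, with a median log2 fold change of 1.00, and of 5 tuft cell genes tested 2 were higher and 0 lower, with a median of 1.48. The peripheral neuron list had 1 of 20 higher and 0 lower, with a median of 1.47, and the epithelium list had 1 of 10 higher and 5 lower, with a median of -0.72 that turned to 0.14 with pan-epithelial scaling. At E18.5 the mesenchymal list had 0 of 12 higher and 9 lower, with a median of -1.94. Their part in the counts of neuroendocrine genes was not tested.

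The transcription factors separated the tissues most often. At E18.5 all 12 of the list that were tested, of 25 listed, were higher in urethra, and at E14.5 11 of 14. With pan-epithelial scaling these were 11 of 12 and 14 of 14. The list includes Rest, which encodes a repressor of neuronal genes. Rest was called higher in urethra, with log2 fold changes of 0.84 ± 0.12 at E18.5 (edgeR adjusted p = 0.000977) and 0.58 ± 0.08 at E14.5 (edgeR adjusted p = 0.00101). Foxa2, a forkhead pioneer factor of endoderm, was at 9.52 to 13.8 CPM in urethra E18.5, against 0.0984 to 0.609 CPM in bladder E18.5, and at 20.1 to 51.0 CPM in urethra E14.5, against 0.062 to 1.01 CPM in bladder E14.5. Its tissue log2 fold change was 4.76 ± 0.47 at E18.5 (edgeR adjusted p = 0.000164) and 6.24 ± 0.67 at E14.5 (edgeR adjusted p = 0.000499).

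Sox2 and Isl1 were abundant well beyond the 9 genes. Sox2, an SRY-box factor of progenitor cells, averaged 73.6 ± 16.3 CPM in urethra E18.5, against 4.47 ± 0.207 CPM in bladder E18.5, and 108 ± 30.9 CPM in urethra E14.5, against 15.3 ± 3.56 CPM in bladder E14.5. Isl1, a LIM homeobox factor, averaged 64.8 ± 17.9 CPM in urethra E18.5, against 7.90 ± 1.52 CPM in bladder E18.5, and 136 ± 44.5 CPM in urethra E14.5, against 26.6 ± 9.88 CPM in bladder E14.5. Their tissue log2 fold changes at E18.5 were 4.10 ± 0.20 for Sox2 (edgeR adjusted p = 1.03e-05) and 3.09 ± 0.24 for Isl1 (edgeR adjusted p = 4.99e-05). Factors of islet and gut endocrine lineages were nearly absent. Nkx2-2 had 0 counts in all 14 libraries, and Neurod1 had 2 counts in urethra E18.5, 4 in urethra E14.5 and 0 in bladder at each stage.

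Between the stages the factors did not follow the hormone genes. Of 14 listed factors tested in urethra, 0 rose and 6 fell, and the median log2 fold change was -0.44. The repressor gene Rest was among the 6, with a log2 fold change of -0.37 ± 0.09 (edgeR adjusted p = 0.00925). With pan-epithelial scaling 0 rose and 9 fell, with a median of -1.28 against -0.84 over all genes. Foxa2 fell, with a log2 fold change of -1.71 ± 0.54 (edgeR adjusted p = 0.0275). Its adjusted p was 0.0815 without urethra E14.5 replicate 2, 0.0674 without urethra E14.5 replicate 4, and 0.0881, 0.106 and 0.0569 without urethra E18.5 replicates 1, 2 and 3, and over all its alternatives it ran from 0.00337 to 0.106. Isl1 fell, with a log2 fold change of -1.06 ± 0.31 (edgeR adjusted p = 0.02). Its adjusted p was 0.056 and 0.0577 without urethra E14.5 replicates 2 and 4, and 0.0547 and 0.0869 without urethra E18.5 replicates 1 and 3, in a range of 0.00168 to 0.0869 over its alternatives.

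Of the granule and hormone processing genes, 5 of 15 were higher in urethra at E18.5 and 1 was lower, and at E14.5 8 of 15 were higher and 1 was lower. Pcsk2, the partner convertase of Pcsk1, stood at 4.53, 4.53 and 4.28 CPM in urethra E18.5 replicates 1 to 3, against 0.285, 0.533 and 0.197 CPM in bladder E18.5 replicates 1 to 3. Its log2 fold change between the tissues at E18.5 was 3.72 ± 0.39 (edgeR adjusted p = 0.000214). In urethra it rose between the stages, with a log2 fold change of 2.58 ± 0.58 (edgeR adjusted p = 0.00486), and 2 other genes of this list rose and 2 fell. With pan-epithelial scaling 1 rose and 6 fell, and the median of the list turned to -0.26. The carboxypeptidase gene Cpe was higher in urethra by a log2 fold change of 1.47 ± 0.19 at E18.5 (edgeR adjusted p = 0.000647) and of 3.16 ± 0.40 at E14.5 (edgeR adjusted p = 0.000773). Syt7, a calcium sensor of exocytosis, had a log2 fold change of 3.01 ± 0.31 at E18.5 (edgeR adjusted p = 0.000219).

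Pcsk2 was low at E14.5, and its call there was lost in several settings, while all urethral libraries stood above all bladder libraries. It stood at 0.562 to 1.02 CPM in urethra E14.5, against 0 to 0.368 CPM in bladder E14.5, with a log2 fold change of 2.19 ± 0.76 (edgeR adjusted p = 0.0439). The adjusted p was 0.058 and 0.113 without bladder E14.5 replicates 1 and 4, and 0.056, 0.0812, 0.066 and 0.109 without urethra E14.5 replicates 1 to 4. With any single library left out the log2 fold change was 1.76 to 2.80. The adjusted p was 0.0586 with no filter and 0.248, at a log2 fold change of 1.43, with the neuronal covariate, in a range of 0.00565 to 0.248 over its alternatives.

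Scg3 and Scg5, granule genes that neurons also use, did not pass between the tissues. Scg3 had a tissue log2 fold change of 2.10 ± 0.83 at E18.5 (edgeR adjusted p = 0.0783) and 1.76 ± 0.77 at E14.5 (edgeR adjusted p = 0.0946). Scg5 had 1.15 ± 0.70 at E18.5 (edgeR adjusted p = 0.232) and 1.92 ± 0.85 at E14.5 (edgeR adjusted p = 0.097). Without bladder E18.5 replicate 2, Scg3 was at 3.76 (edgeR adjusted p = 0.00894, range 0.00894 to 0.251) and Scg5 at 2.45 (edgeR adjusted p = 0.0126, range 0.0126 to 0.598). Without bladder E14.5 replicate 3, Scg5 was at 2.77 (edgeR adjusted p = 0.0304, range 0.0109 to 0.661). At E18.5 Scg3 passed with DESeq2 too (adjusted p = 0.019). With pan-epithelial scaling both passed at E14.5, Scg3 at 2.78 (edgeR adjusted p = 0.0102, range 0.0102 to 0.627) and Scg5 at 2.99 (edgeR adjusted p = 0.0109).

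The peripheral neuron list itself had 1 gene higher in urethra of 19 tested at E18.5, Ret, and 1 of 20 at E14.5, Th. With pan-epithelial scaling 19 of the 20 were higher at E14.5. Ret, a receptor tyrosine kinase of neurons, had a log2 fold change of 2.67 ± 0.44 at E18.5 (edgeR adjusted p = 0.00198).

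Vesicle and excitability genes moved in part. At E18.5, 5 of 19 were higher in urethra and 2 were lower, and at E14.5 6 of 18 were higher and 2 were lower. Rims2, which encodes an active zone protein of regulated exocytosis, averaged 4.87 ± 1.36 CPM in urethra E18.5, against 0.347 ± 0.139 CPM in bladder E18.5, and 5.84 ± 1.22 CPM in urethra E14.5, against 0.870 ± 0.376 CPM in bladder E14.5. The log2 fold change of Rims2 was 3.84 ± 0.41 at E18.5 (edgeR adjusted p = 0.000252) and 2.78 ± 0.35 at E14.5 (edgeR adjusted p = 0.000791). Kcnh6, a potassium channel gene, had a log2 fold change of 3.39 ± 0.57 at E18.5 (edgeR adjusted p = 0.00219). Syp, the synaptophysin gene often used as a neuroendocrine marker, had 0.46 ± 0.68 at E18.5 (edgeR adjusted p = 0.634) and 1.13 ± 0.55 at E14.5 (edgeR adjusted p = 0.129).

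Of the lower genes of this list, chosen after their values were seen, Ncam1, Eno2 and Uchl1 are also used as neuroendocrine or neuronal markers. At E18.5 they were Ncam1, a cell adhesion gene, at 17.0 to 47.2 CPM in urethra against 67.5 to 106 CPM in bladder, and Eno2, the neuronal enolase gene, at 8.46 to 11.1 CPM in urethra against 17.4 to 30.6 CPM in bladder. Their log2 fold changes were -1.45 ± 0.34 for Ncam1 (edgeR adjusted p = 0.0101) and -1.14 ± 0.23 for Eno2 (edgeR adjusted p = 0.00587). With all 14 libraries in the fit the calls were lost, at 0.0693 for Ncam1 (range 2.69e-05 to 0.0693) and 0.0873 for Eno2 (range 3.05e-05 to 0.0873). At E14.5 the lower genes were Rab3b, a vesicle GTPase gene, with a log2 fold change of -2.72 ± 0.41 (edgeR adjusted p = 0.00148), and Uchl1, a ubiquitin hydrolase gene, with -1.03 ± 0.28 (edgeR adjusted p = 0.0183). The call of Uchl1 was lost without bladder E14.5 replicate 4 (0.0501), with the neuronal covariate (0.0988) and with pan-epithelial scaling (0.997), in a range of 0.00149 to 0.997. Eno2 stood at 6.23 to 8.67 CPM in urethra E14.5, against 0.683 to 5.18 CPM in bladder E14.5.

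Genes of the GABA and serotonin pathways were looked at beside Gad2 and Tph1. Gad1 stood at 5.21, 3.53 and 6.15 CPM in urethra E18.5 replicates 1 to 3, against 0, 0.152 and 0 CPM in bladder E18.5 replicates 1 to 3, a log2 fold change of 6.37 ± 0.73 (edgeR adjusted p = 0.000347). Without bladder E18.5 replicate 2, the bladder library that held all 4 counts of that group, the fitted value was 10.07. In urethra Gad1 rose between the stages by a log2 fold change of 3.87 ± 0.77 (edgeR adjusted p = 0.0026). Gad1 was not tested between the tissues at E14.5, where it was at 0.0803 to 0.880 CPM in urethra and 0 to 0.092 CPM in bladder. It passed the filter on low counts only through urethra E18.5, so nothing is read from its calls. The vesicular GABA transporter gene Slc32a1 had 2 counts in urethra E18.5 and 5 in urethra E14.5, and 0 in bladder at each stage. Of 6 GABA pathway genes tested, 2 were higher in urethra and 2 lower at E18.5, and 2 were higher and 0 lower at E14.5.

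The serotonin genes Ddc, Slc18a1 and Slc6a4 did not pass as higher in urethra at E18.5. Ddc, the decarboxylase that follows Tph1, averaged 10.8 ± 2.84 CPM in urethra E18.5, against 8.75 ± 1.18 CPM in bladder E18.5, with a log2 fold change of 0.36 ± 0.23 (edgeR adjusted p = 0.259). Slc18a1, a vesicular monoamine transporter gene of endocrine cells, averaged 2.84 ± 1.14 CPM in urethra E18.5, against 2.01 ± 0.559 CPM in bladder E18.5, with a log2 fold change of 0.56 ± 0.38 (edgeR adjusted p = 0.283). At E14.5 the log2 fold changes were -0.55 ± 0.32 for Ddc (edgeR adjusted p = 0.186) and -0.73 ± 0.37 for Slc18a1 (edgeR adjusted p = 0.141). Without urethra E14.5 replicate 3 they were -0.95 for Ddc (edgeR adjusted p = 0.0116, range 0.0116 to 0.363) and -1.18 for Slc18a1 (edgeR adjusted p = 0.0179, range 0.0179 to 0.547). The serotonin transporter gene Slc6a4 was lower in urethra at E18.5, averaging 0.427 ± 0.217 CPM in urethra E18.5 and 3.11 ± 0.719 CPM in bladder E18.5, a log2 fold change of -2.77 ± 0.43 (edgeR adjusted p = 0.00147). Monoamine genes as a list had 1 of 9 higher and 3 lower in urethra at E18.5, and 3 of 9 higher and 1 lower at E14.5. The 1 higher at E18.5 was Gch1, with a log2 fold change of 0.95 ± 0.27 (edgeR adjusted p = 0.0263). At E14.5 Gch1 had 1.43 ± 0.47 (edgeR adjusted p = 0.0377). Between the stages in urethra it rose by 1.495 ± 0.40 (edgeR adjusted p = 0.0131), a call lost with pan-epithelial scaling (0.58, edgeR adjusted p = 0.316). Th, the tyrosine hydroxylase gene, was at 5.10 to 8.51 CPM in urethra E14.5, against 0.284 to 1.15 CPM in bladder E14.5, a log2 fold change of 3.40 ± 0.46 (edgeR adjusted p = 0.00101).

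The other peptide hormones differed from Calca and Iapp. At E18.5, 1 of 14 tested was higher in urethra, Calcb, and 3 were lower, and at E14.5 2 of 11 were higher and 0 lower. Cck, the cholecystokinin gene, was at 0.171 to 0.671 CPM in urethra E18.5, against 16.8 to 29.3 CPM in bladder E18.5, a log2 fold change of -5.61 ± 0.40 (edgeR adjusted p = 3.88e-05). The somatostatin gene Sst was at 0 to 1.68 CPM in urethra E18.5, against 0 to 5.14 CPM in bladder E18.5. Calcb passed at a log2 fold change of 3.34 ± 1.09 (edgeR adjusted p = 0.0416). That call was lost without bladder E18.5 replicates 1 and 3 (log2 fold changes of 2.87 and 2.78, adjusted p of 0.111 and 0.0878), without urethra E18.5 replicates 1 and 2 (3.64 and 2.10, adjusted p of 0.0546 and 0.19) and with DESeq2 (0.0523), in a range of 0.0014 to 0.19 over its alternatives. Without bladder E18.5 replicate 2 the log2 fold change was 5.91. Receptors for the products of the 9 genes were higher in urethra in 0 of 9 tested and lower in 4 at E18.5, and higher in 3 of 10 and lower in 0 at E14.5. With pan-epithelial scaling, 10 of 10 were higher at E14.5.

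**Figure D5:**
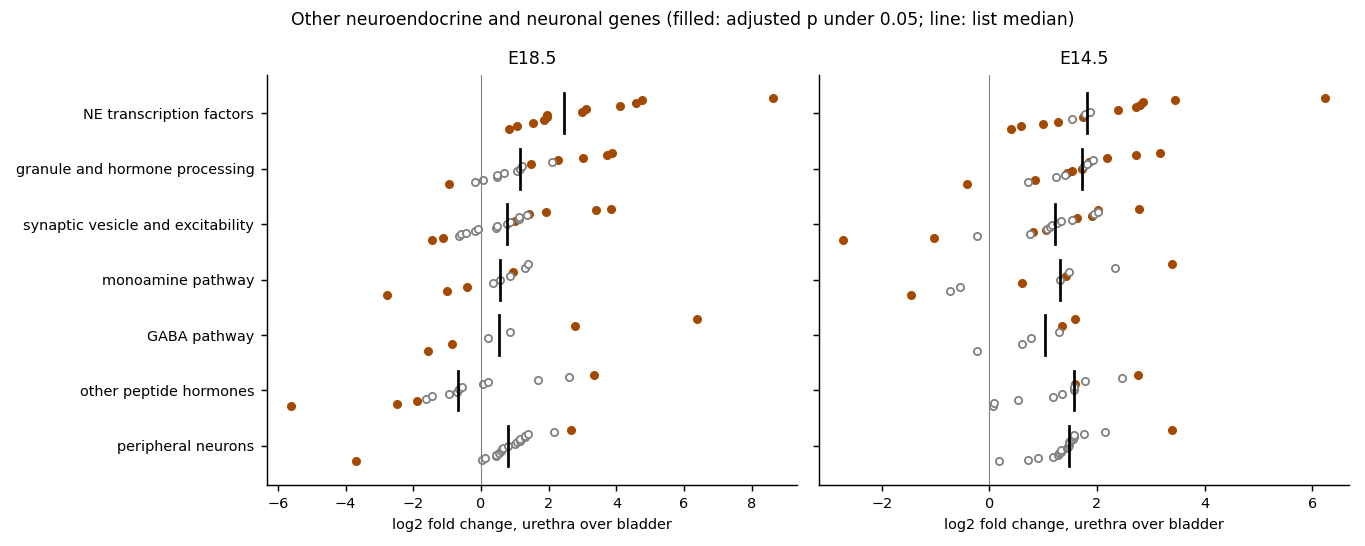
Log2 fold change between urethra and bladder (horizontal axes) of the listed genes other than the 9, at E18.5 and at E14.5, a row for each list. Filled points passed an edgeR adjusted p under 0.05, and the line is the median of the list. The transcription factors (NE, neuroendocrine) lie to the right at each stage, with medians of 2.46 at E18.5 and 1.82 at E14.5, and the other peptide hormones have a median of -0.68 at E18.5 and 1.57 at E14.5.

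Cell types that share single markers with neuroendocrine cells were looked at in the same way. Of the Merkel cell list, Atoh1 was higher in urethra at E18.5, at 0.839 to 1.20 CPM in urethra against 0 to 0.152 CPM in bladder, a log2 fold change of 4.17 ± 0.81 (edgeR adjusted p = 0.00447). Without bladder E18.5 replicate 2, the bladder library that held all counts of the gene, the fitted value was 7.86. Atoh1 passed the filter on low counts at E18.5 only through urethra, so nothing is read from its call. Krt20, a keratin gene of Merkel cells and also of superficial urothelial cells, was lower in urethra at E18.5, at 27.3 to 78.3 CPM in urethra against 71.0 to 229 CPM in bladder, a log2 fold change of -1.75 ± 0.49 (edgeR adjusted p = 0.023). The call of Krt20 was lost without bladder replicates 2 and 3 (0.0569 and 0.0683) and without urethra replicates 1 and 3 (0.0733 and 0.0605), in a range of 0.000432 to 0.0733. The summed level of the 5 Merkel genes was 52.4 to 105 CPM in urethra E18.5, against 103 to 256 CPM in bladder E18.5, and 23.4 to 55.0 CPM in urethra E14.5, against 29.6 to 46.1 CPM in bladder E14.5. The 11 genes of tuft cells summed to 11.6 to 14.2 CPM in urethra E18.5, against 13.4 to 22.7 CPM in bladder E18.5, and to 10.7 to 18.6 CPM in urethra E14.5, against 2.79 to 8.83 CPM in bladder E14.5. The 10 genes of Schwann cells and glia summed to 253 to 313 CPM in urethra E18.5, against 179 to 224 CPM in bladder E18.5, and to 189 to 330 CPM in urethra E14.5, against 307 to 360 CPM in bladder E14.5. Their part in the levels of the 9 genes was not tested.

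The genes whose profile over the 14 libraries was most like the mean profile of the 9 were found among 15352 candidates of at least 1 CPM on average, by Pearson correlation of log2 CPM. Among those most like it were Spock1 (0.97), Sox1ot (0.97), Gm14226 (0.96), Pcsk2 (0.96) and Gad1 (0.95). The 14 libraries share tissue and stage groups, so these values describe likeness only. Spock1, a proteoglycan gene, was at 19.3 to 56.6 CPM in urethra E18.5, against 0.344 to 2.32 CPM in bladder E18.5, and at 4.76 to 6.62 CPM in urethra E14.5, against 0.336 to 3.86 CPM in bladder E14.5. Gm14226 was at 12.9 to 17.9 CPM in urethra E18.5, against 0 to 0.381 CPM in bladder E18.5, and at 0.656 to 1.57 CPM in urethra E14.5, against 0 to 0.202 CPM in bladder E14.5. Each of these had its highest libraries in urethra E18.5, as Pcsk1 and Tph1 did.

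Profiles like those of Insm1 and Chga were looked for in the same way. Among the profiles most like Insm1 were those of St6gal2 (0.97) and Foxo6 (0.96), and among those most like Chga were Galnt14 (0.94) and Fam189a1 (0.94). St6gal2, a sialyltransferase gene, was at 23.4 to 34.1 CPM in urethra E18.5, against 0.492 to 1.68 CPM in bladder E18.5, and at 26.2 to 35.3 CPM in urethra E14.5, against 1.45 to 6.58 CPM in bladder E14.5. Like Insm1 it stood in urethra at about the same level at each stage. Between the 9 genes themselves, r over the 14 libraries ran from 0.376 for Chgb and Iapp to 0.961 for Pcsk1 and Tph1.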

How the data were processed

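RNA-seq was measured in 14 libraries. The values deposited by the authors were raw counts per gene symbol. Per the submitters' processing notes, bcl2fastq, HISAT2 2.2.1, SAMtools 1.9 and GRCm38 were used. Those notes name neither the program that counted reads nor its handling of strand, and no annotation release. In each library 64.4 to 69.0% of counts from 1 to 20 were even, so 3 counts may stand for fewer read pairs. Replicates were litter pools. Extraction notes give 3 litters for each kind of sample, and the 4 libraries per tissue at E14.5 were taken as 4 litters.

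CPM used effective library sizes of all 14 libraries (edgeR 4.0.16, R 4.3.3). Tests were edgeR quasi-likelihood F tests after filterByExpr, Benjamini-Hochberg threshold 0.05: tissue contrasts within a stage, stage contrasts on all 14 libraries. The SE of a log2 fold change was its absolute value over the square root of the F statistic. In simulated data, 4-fold changes were recovered in 85, 90 and 86% at E14.5, E18.5 and between stages in urethra, 2-fold changes in 51, 66 and 62%. The changes were planted only in genes above a floor of mean counts, so these shares do not cover genes of few counts. A fold against 0 counts used 3 counts over the group, a limit that covers counting error only. The 9 genes and all lists were chosen with earlier results of these data known. Besides the 9, genes named were the up to 3 smallest adjusted p of a list and the smallest in the other direction, a panel, and the nearest profiles. Of these, the ones printed were picked with values in view. Sst, Slc32a1, Ncam1, Eno2, Krt20, Uchl1, Rab3b, Ret, Syt7, Kcnh6, Slc6a4 and Calcb were picked so. Alternatives were DESeq2 1.42.0 and its size factors, scaling on 7 pan-epithelial genes, no filter or at least 1 CPM, each library left out, a replicate block, other library sets, and, after the data were seen, a neuronal covariate, halved counts and leaving out the most neuronal library of each group. Promoters were RefSeq's (GRCm38.p6). A few genes that the rule for named genes picks are not reported here.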

Additional observations from a re-analysis of the deposited data

Results flagged for a closer look

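Single libraries stood apart in 10 of 101 groups of 4 libraries checked. The limit used gives about 1 in 20 by chance for normally distributed values, which CPM need not be. It does not hold for 4 of the 10, Iapp, Cck, Gad1 and Atoh1, with 3 libraries at 0 and 1 at a few counts. The groups also share libraries, so the count is not set against that rate. In urethra E14.5, Krt20 was at 5.586 CPM in replicate 1, against 2.914 CPM in the next library. In the same group, replicate 1 had 13.86 CPM of Gad2, against 1.721 CPM in the next library, and 0.5278 CPM of Iapp, against 0 in the others. In urethra E14.5 replicate 3, Ddc was at 16.94 CPM, against 8.005 CPM in the next library, and Cck was at 0.2408 CPM, against 0 in the others. In bladder E14.5 replicate 3, Calca was at 1.196 CPM, against 0.1861 CPM in the next library, Calcb at 2.714 CPM, against 0.5583 CPM, and Gad1 at 0.092 CPM, against 0. That library also had the lowest summed level of 10 epithelial genes, 8226 CPM against 9575 to 9621 CPM in the others. In bladder E14.5 replicate 4, Atoh1 was at 0.1344 CPM, against 0 in the others.

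The stage change differed between the tissues for 10 of 28 genes outside the 9 (edgeR interaction test, adjusted p under 0.05), against 22.9% of all genes. Many of the 28 were named for their tissue or stage differences in these libraries, of which the interaction is made. Nothing is therefore read from the count. Pan-epithelial scaling raised the calls over all genes to 13154, in place of 4183. The stage change in urethra minus that in bladder, on the log2 scale, was -5.14 for Slc6a4 (edgeR adjusted p = 0.00568), -5.01 for Cck (edgeR adjusted p = 0.0189), -2.79 for Eno2 (edgeR adjusted p = 0.0128), -2.66 for Ncam1 (edgeR adjusted p = 0.0303), -1.73 for Cpe (edgeR adjusted p = 0.0236), 1.22 for Sox2 (edgeR adjusted p = 0.0279), 2.04 for Rab3b (edgeR adjusted p = 0.036), 2.12 for Syt7 (edgeR adjusted p = 0.00293), 2.47 for Ret (edgeR adjusted p = 0.00477) and 2.73 for Kcnh6 (edgeR adjusted p = 0.0469).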

How the results depend on the processing

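Scaling on pan-epithelial genes shifted all comparisons: the median over all genes was -0.40 (log2) between tissues at E18.5, 1.01 at E14.5, -0.84 between stages in urethra and 0.53 in bladder. The share of calls that were higher was 18.6% in place of 49.2%, 95.7% in place of 47.5%, 9.08% in place of 52.3% and 95% in place of 49.5%, in that order. Under it, 11932 genes in place of 7351 were called between tissues at E14.5 (11415 higher, 517 lower), 10823 in place of 6031 between stages in urethra (983 higher, 9840 lower) and 13154 in place of 4183 for the interaction. Listed neuroendocrine genes called higher were then 61 in place of 32 at E14.5 and 3 in place of 9 between stages in urethra. The calls of Gch1 in urethra between stages (log2 fold change 0.58, adjusted p 0.316) and of Maob at E14.5 (-0.39, adjusted p 0.358) were lost with it. Signs turned for Chgb (-0.70) and Insm1 (-0.41) between stages in urethra, and between tissues for Ddc (0.50 at E14.5, -0.02 at E18.5) and Slc18a1 (0.35 at E14.5).

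With the neuronal covariate, 3466 genes were called and 16 listed genes were higher between tissues at E14.5, and 16 listed genes rose between stages in urethra. Syp turned to -0.02 at E14.5 and -0.25 at E18.5. With the most neuronal library of each group left out, 3477 genes were called between stages in urethra and 2661 for the interaction. Chgb turned to -0.10 between stages in urethra, and Calca, Chga, Chgb and Scg2 to -0.59, -0.81, -0.14 and -0.94 between stages in bladder.

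Leaving out each library gave 4062 to 7260 genes between stages in urethra, 2654 to 5697 for the interaction, 5952 to 8011 between stages in bladder, 5593 to 8394 between tissues at E14.5 and 4751 to 6628 at E18.5. Listed genes higher were 7 to 14 between stages in urethra, 24 to 43 at E14.5 and 24 to 34 at E18.5, and 5 to 7 of the 9 genes had an adjusted p under 0.05 as higher between stages in urethra. Signs turned for Chgb between stages in urethra (-0.63 to 0.86), for Syp at E18.5 (-0.63 to 1.28), and between stages in bladder, each without E18.5 replicate 2, for Calca (-1.93 to 2.02), Chga (-1.22 to 1.02), Scg2 (-0.94 to 2.45), Chgb (-0.56 to 1.08) and Tph1 (-0.16 to 0.97). DESeq2 called 1 of the 9 lower between stages in bladder, Insm1. The cause of these shifts was not tested.

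Whether replicate numbers pair the tissues was not settled, and the main tests used no pairing. Deviations of same-numbered libraries correlated at 0.149, 0.137, 0.389 and -0.101 in E14.5 libraries and 0.146, -0.149 and -0.193 at E18.5. Those of libraries with different numbers ran from -0.391 to 0.258 at E14.5 and from -0.276 to 0.363 at E18.5. The replicate block gave 7680 genes at E14.5 and 5363 at E18.5. With it Pcsk2 lost its call at E14.5 (2.39, adjusted p 0.0651), and Scg5 (2.34, adjusted p 0.0485) and Ddc (-0.63, adjusted p 0.0209) passed. Below about 1 CPM, levels rest on few counts and differences may not be detectable at this depth.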
